A study of Rattus norvegicus with 12 samples.

Results

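Receptor tyrosine phosphatases were followed by their mRNA in rat PAC1 cells, a pulmonary artery smooth muscle cell (SMC) line. The family was represented by 10 of the 33294 genes in the count table: Ptprv, Ptpra, Ptprd, Ptpre, Ptprf, Ptprg, Ptprj, Ptprk, Ptprm and Ptprs. The list was chosen from earlier results on these data, as it grew from Ptprv, which was known to have the largest rise upon RBPMS knockdown. Values of Ptprv, and all values in the comparison of RBPMS knockdown with control, are therefore given as a description, with no p-value and nothing read from how many passed a threshold.

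Poly(A) RNA was sequenced from 12 libraries in 4 groups of 3. D1 cells were more differentiated PAC1 cells (PAC1-D), split weekly, that received a scrambled control siRNA, and P cells were more proliferative PAC1 cells (PAC1-P), split more often and at a higher dilution, that received the same control. RBPMS KD1 cells were PAC1-D cells given siRNA against the RNA-binding protein RBPMS, and MBNL KD cells were PAC1-D cells given siRNAs against both MBNL1 and MBNL2, although the titles of those samples name MBNL1 alone. All 4 groups are 1 cell line without added genes, all received siRNA in a first and a repeated transfection, and the P cells differ from D1 in culture history rather than in a targeted gene.

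Receptor tyrosine phosphatases are transmembrane enzymes that remove phosphate from tyrosine residues and so oppose tyrosine kinases. Their extracellular parts define subtypes: the LAR type (Ptprf, Ptprs and Ptprd) binds heparan and chondroitin sulfate proteoglycans, the MAM-domain type (Ptprk and Ptprm) binds like molecules on neighbouring cells, and Ptpra and Ptpre have short, glycosylated extracellular parts. Ptprg carries a carbonic anhydrase-like domain, Ptprj, also called DEP-1, carries fibronectin type III repeats, and Ptprv, also called OST-PTP or Esp, is best known from osteoblasts.

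The promoters of Ptprv and Ptprm are shown because these genes had the widest range of levels among the matched members that were counted well in every group. Each is the RefSeq GRCr8 sequence from 250 bases before to 50 bases after the annotated start, read 5′ to 3′ on the gene's strand, with every CG dinucleotide in capitals. They lie at chr13:49120072-49120371 on the minus strand for Ptprv and at chr9:114790428-114790727 on the minus strand for Ptprm.
Ptprv: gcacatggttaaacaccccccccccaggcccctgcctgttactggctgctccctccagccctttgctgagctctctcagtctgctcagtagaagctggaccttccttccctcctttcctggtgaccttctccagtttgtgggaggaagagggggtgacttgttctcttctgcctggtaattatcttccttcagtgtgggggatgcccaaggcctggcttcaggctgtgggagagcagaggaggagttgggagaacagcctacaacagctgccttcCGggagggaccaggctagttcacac
Ptprm: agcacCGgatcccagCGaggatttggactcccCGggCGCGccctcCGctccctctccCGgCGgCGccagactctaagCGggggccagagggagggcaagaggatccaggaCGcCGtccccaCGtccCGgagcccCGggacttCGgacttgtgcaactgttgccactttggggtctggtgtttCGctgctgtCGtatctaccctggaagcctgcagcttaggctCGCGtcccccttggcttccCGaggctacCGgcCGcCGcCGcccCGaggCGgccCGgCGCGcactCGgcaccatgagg
The Ptprv window held 1 CG and that of Ptprm 31, with a median of 7 over the 33469 rat promoters of the same length, of which 13.6% held at most 1 and 91.6% held at most 31. GC content was 58.0% and 70.0%. The letters CAGCTG, which read the same on both strands, occurred 1 time in the Ptprv window and 0 times in that of Ptprm, and 15.1% of all promoters held them. Of the 10 members, 9 had a promoter in the table, Ptprd with 2 starts, and Ptprk had none. Beside Ptprv, low CG counts stood at Ptprf, with 4, and at 1 of the Ptprd starts, with 2, whereas the remaining windows held 23 to 40.

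Library totals lay between 80842635 and 90771289 counts, so that 3 counts, taken as the limit of detection, were 0.0331 to 0.0371 CPM, the unit in which counts are scaled to a common library total. The siRNA targets were reduced in the libraries labelled for them: Rbpms mRNA was at 25.0% of its D1 mean in RBPMS KD1, and Mbnl1 and Mbnl2 were at 23.7% and 29.5% in MBNL KD. Rbpms was at 6.3% of D1 in P and at 83.3% in MBNL KD. The summed scaled counts of 9 contractile smooth muscle markers were 871969 to 916428 in D1, 434392 to 450164 in RBPMS KD1, 694697 to 705148 in MBNL KD and 19836 to 21042 in P, a sum made up mostly of Acta2 and Tagln in PAC1-D cells. Of the 9, 8 fell in P, and Des, which encodes desmin, rose in P from 225 ± 15.8 to 1181 ± 31.3 (log2 2.39, SE 0.077, edgeR adjusted p = 5e-24).

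Ptprv, the member from which the list grew, had a level of its own in each of the 4 groups. Its counts in the 3 libraries were 1700, 1731 and 1588 in RBPMS KD1, 471, 552 and 474 in MBNL KD, 310, 306 and 245 in D1, and 28, 32 and 36 in P. No group overlapped another, and the order was RBPMS KD1, MBNL KD, D1 and P. After scaling all libraries to a common size (scaled counts, used for every mean below), the means were 1688 ± 85.1 in RBPMS KD1, 510 ± 39.0 in MBNL KD, 294 ± 38.2 in D1 and 30.3 ± 3.88 in P (SD, n = 3). The mean in RBPMS KD1 was 55.8 times that in P. In RNA from bulk cultures, fewer cells with a transcript and less of it per cell cannot be told apart.

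Against D1, Ptprv was 5.74-fold higher in RBPMS KD1 (log2 fold change 2.52, SE 0.076), 1.73-fold higher in MBNL KD (0.80, SE 0.10) and 9.72-fold lower in P (-3.28, SE 0.18). These 3 comparisons share the D1 libraries. In the direct comparison of the knockdowns, which share no library, Ptprv was 3.31-fold higher in RBPMS KD1 than in MBNL KD (log2 1.73, SE 0.066). P cells and RBPMS KD1 cells, both with less Rbpms mRNA than D1, thus stood at the opposite ends of the Ptprv range.

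**Figure D1:**
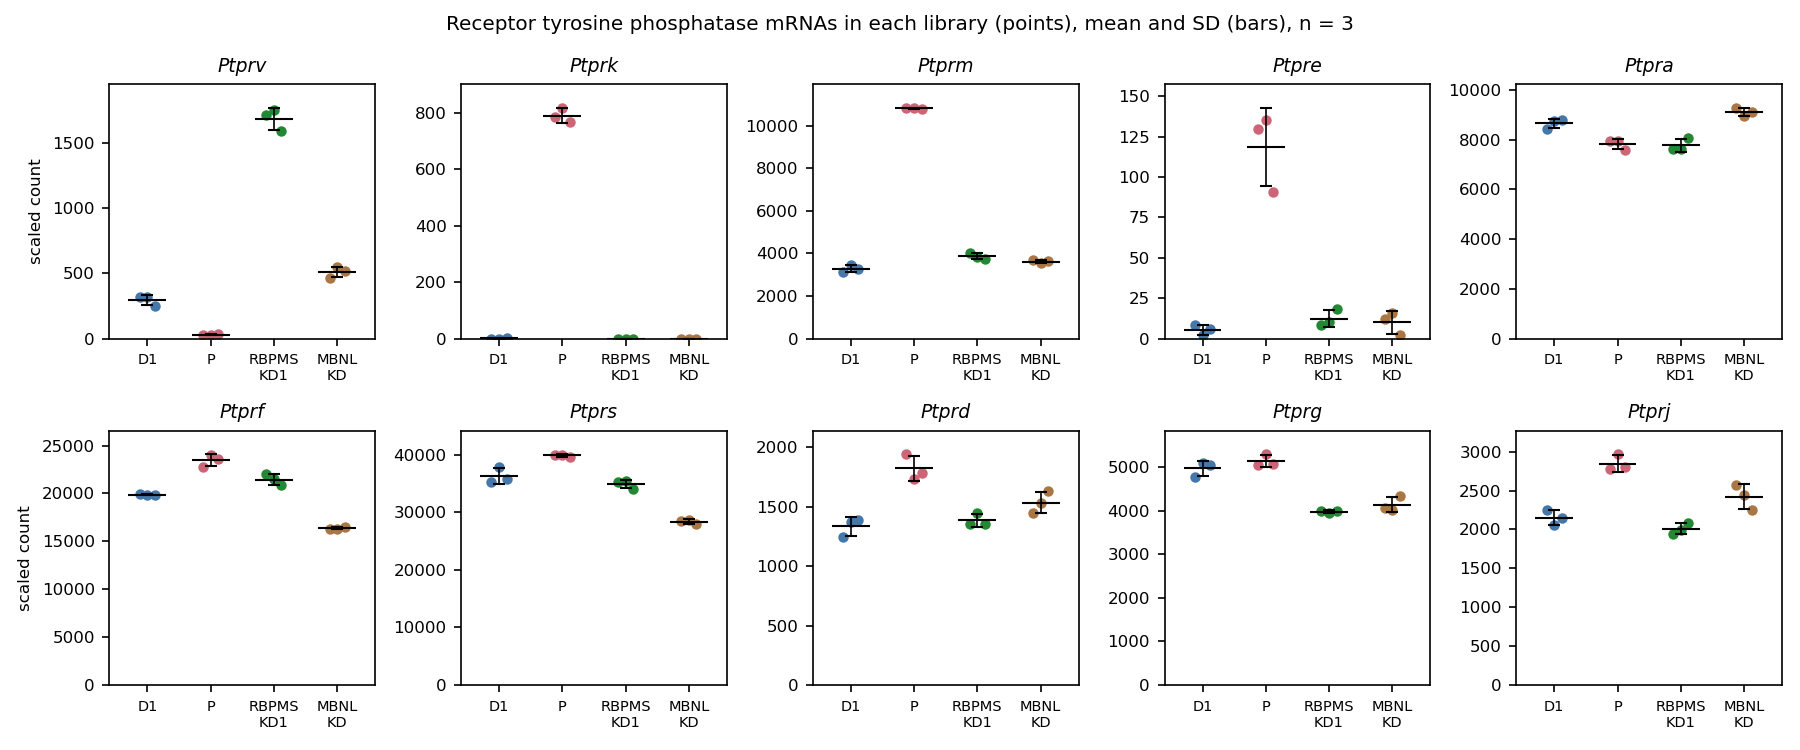
Scaled counts of the 10 receptor tyrosine phosphatases (y axis, linear, starting at 0 in every panel) in the 12 libraries by group (x axis), with 1 point per library, a long bar for the mean and an error bar for the SD (n = 3). Ptprv is highest in the RBPMS KD1 libraries and Ptprk, Ptprm and Ptpre are highest in the P libraries, while the other 6 panels span less than 1.5-fold between group means.

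Osteoblast markers were read because Ptprv is known from that cell type. Their summed scaled counts, over 7 genes, were 544 to 598 in D1, 389 to 415 in P, 1097 to 1161 in RBPMS KD1 and 888 to 975 in MBNL KD. Most of this sum came from Phex, a bone endopeptidase, with means of 438 in D1, 57.3 in P, 950 in RBPMS KD1 and 493 in MBNL KD, and from Runx2, an osteoblast transcription factor, with means of 105, 328, 165 and 427. The defining gene Bglap, which encodes osteocalcin, had group means of at most 16.5, and Alpl and Ibsp were at 0 in D1. The part of these genes in the Ptprv levels was not tested.

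The genes beside Ptprv were taken from the order of genes in GRCr8. Ptpn7, a cytoplasmic phosphatase of MAP kinases that neighbours Ptprv, had 96, 72 and 94 counts in RBPMS KD1 against 36, 40 and 33 in D1, without overlap. The mean scaled counts were 88.1 ± 13.2 in RBPMS KD1, 40.0 ± 8.08 in MBNL KD, 37.3 ± 3.83 in D1 and 31.5 ± 4.31 in P. It was higher in RBPMS KD1 than in MBNL KD by 1.13 on the log2 scale (SE 0.23, edgeR adjusted p = 8.7e-05), and did not pass the test in P (edgeR adjusted p = 0.47) or in MBNL KD (edgeR adjusted p = 0.75) against D1. Whether reads were counted by strand is not given in the sources used here, so reads that overlap between neighbouring genes cannot be told apart.

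On the other side of Ptprv, Lgr6, an R-spondin receptor, was highest in MBNL KD, at 55.1 ± 23.8 against 8.18 ± 6.11 in D1 (log2 2.74, SE 0.44). Its mean was 21.2 ± 6.31 in RBPMS KD1, whose libraries overlapped those of D1, and it was lower in RBPMS KD1 than in MBNL KD (-1.38, SE 0.34, edgeR adjusted p = 0.00073). Ube2t, a ubiquitin-conjugating enzyme of DNA repair, rose in P by 0.41 (SE 0.061, edgeR adjusted p = 2.7e-07) and fell in MBNL KD by 0.35 (SE 0.07, edgeR adjusted p = 6.5e-05). The uncharacterised LOC120096252, which overlaps Ptpn7, had group means of at most 9.43. The order of the Ptpn7 means was that of the Ptprv means, but the Ptpn7 libraries of MBNL KD, D1 and P overlapped.

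**Figure D2:**
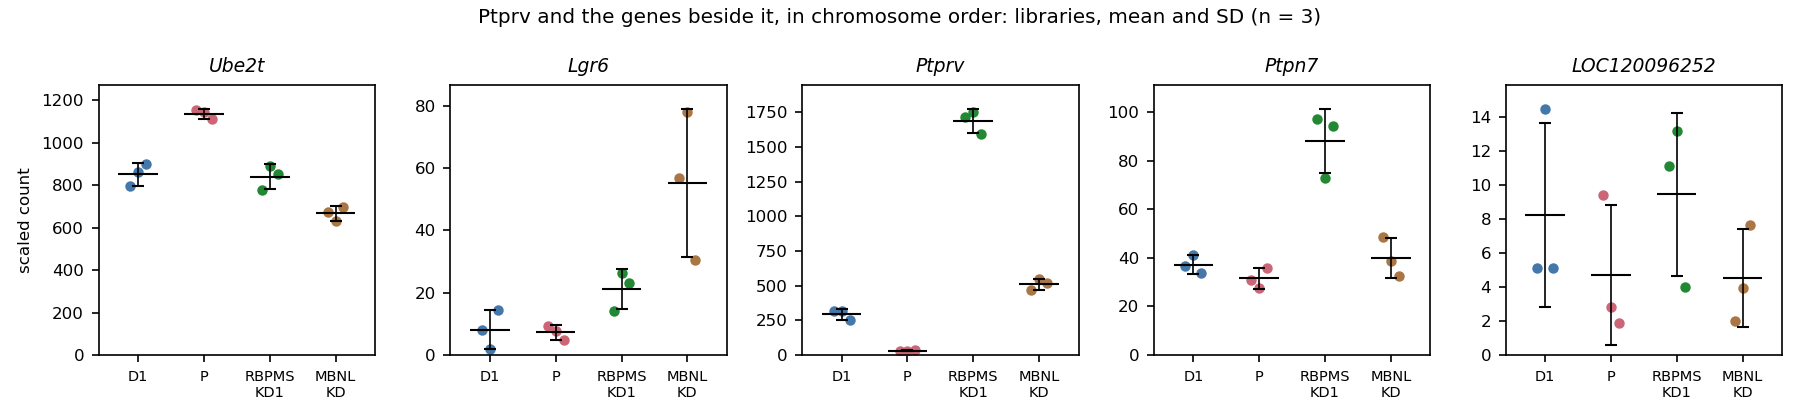
Scaled counts (y axis, linear from 0, with a different range in each panel) of Ptprv and the pair of genes on each side of it in chromosome order, in the 12 libraries (x axis), with 1 point per library, the mean and the SD (n = 3). Ptprv and Ptpn7 are highest in RBPMS KD1, Lgr6 is highest in MBNL KD and Ube2t is highest in P.

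Over the 12 libraries, the 5 genes whose log2(CPM + 0.5) values followed Ptprv most closely included Ankrd29, an ankyrin repeat gene (Pearson r = 0.9951), LOC102551884 (0.9934), P3h2, a collagen prolyl hydroxylase (0.9933), and Tm9sf1, a transmembrane gene (0.992), among 17428 genes. The libraries of a group count as repeats of 1 condition, so these coefficients describe 4 group levels. The spans differed: Tm9sf1 had means of 7583 in RBPMS KD1 and 4667 in P, whereas LOC102551884 had 568.3 and 5.67 and P3h2 had 82.05 and 0. None of the 5 stood among the closest 5 with log2(CPM + 5) or with Spearman's rho.

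The remaining 9 members were compared between P and D1 by the quasi-likelihood test of edgeR, and p-values were adjusted by the Benjamini-Hochberg method over all 16814 genes tested. A gene is said to rise or fall here at an adjusted p under 0.05, and to be called changed if its absolute log2 fold change was also over 1. In P, 7 of the 9 rose, 1 fell and 1 did not pass, and 3 were called higher and 0 lower. Over all genes tested, 40.4% rose and 37.6% fell, and 16.4% were called higher and 11.2% lower. Ptprk and Ptpre, 2 of the 3 called higher, passed the filter on low counts through their P libraries alone, so no support is drawn from these counts and no p-value is given for that pair. Under quantile normalization the share of higher genes among all calls went from 59.4% to 45.8% in P against D1 and from 65.4% to 54.3% in RBPMS KD1 against D1, but every member that rose or fell in P kept its direction.

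Ptprk and Ptprm, the MAM-domain receptors of the list, were both higher in P. Ptprk counts were 832, 864 and 807 in P, 0, 0 and 2 in D1, and 0 in each of the 6 knockdown libraries. Against the limit of 3 counts per library, Ptprk was at least 257-fold higher in P than in D1, although limma on the authors' normalised values gave a log2 fold change of 4.44, and no difference between the knockdowns and D1 was detectable at this depth. Ptprk mRNA was thus counted in the P libraries and was at or under the limit in all 9 PAC1-D libraries.

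Ptprm, in contrast, was well counted in every library. It had 11526, 11473 and 11407 counts in P and 3049, 3370 and 3211 in D1. The P mean of 10842 ± 22.5 was 3.3-fold that of D1, 3290 ± 182 (log2 1.72, SE 0.033, edgeR adjusted p = 1.3e-30). In the knockdowns the means were 3874 ± 147 in RBPMS KD1 and 3616 ± 76.1 in MBNL KD, between those of D1 and P and much closer to D1.

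Ptpre, a close relative of Ptpra known from blood cells and bone-resorbing cells, was near the limit of counting outside P. Its counts were 138, 143 and 96 in P, 8, 2 and 6 in D1, 8, 10 and 18 in RBPMS KD1 and 12, 16 and 2 in MBNL KD. It was 21.8-fold higher in P than in D1 (log2 4.41, SE 0.35), without overlap, although limma on the authors' normalised values gave a log2 fold change of 1.70. It was filtered out for low counts in both knockdown comparisons with D1, in which its groups overlapped.

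The LAR-type members Ptprs and Ptprf rose by small amounts in P. Ptprs had 42528, 42274 and 41783 counts in P and 34506, 36756 and 35120 in D1, with means of 39889 ± 235 and 36345 ± 1413 (log2 0.13, SE 0.026, edgeR adjusted p = 2.1e-05). Ptprf had 24214, 25420 and 24848 counts in P and 19491, 19213 and 19462 in D1, with means of 23472 ± 632 and 19869 ± 40.7 (log2 0.24, SE 0.025, edgeR adjusted p = 2.3e-10). The P libraries lay above the D1 libraries for both after scaling. The size depended on the scaling, with up to 0.31 for Ptprs and 0.37 for Ptprf over the alternatives.

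Ptprd, the third LAR-type member, rose in P by 0.45 (SE 0.054, edgeR adjusted p = 5.5e-09), from 1335 ± 81.0 to 1820 ± 108. Ptprj, which acts on growth factor receptors and Src family kinases, rose by 0.40 (SE 0.043, edgeR adjusted p = 3.6e-10), from 2151 ± 95.9 to 2846 ± 107. Ptpra, which activates Src by removing its inhibitory phosphate, was the member that fell among the tested 9, by 0.15 (SE 0.029, edgeR adjusted p = 2.8e-05), from 8659 ± 190 to 7831 ± 201. For Ptprg the groups overlapped, with 5144 ± 139 in P and 4978 ± 165 in D1 (log2 0.05, 95% interval from the SE -0.02 to 0.11, edgeR adjusted p = 0.2), although it passed under quantile normalization (edgeR adjusted p = 0.0347).

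Markers of other cell types were also read in P and D1. The summed scaled counts of 7 endothelial markers were 487 to 605 in P and 67.1 to 72.5 in D1, with Emcn at 0 in both and Cdh5 at 0 in D1. Sums over 7 leukocyte markers were 90.4 to 149 and 79.6 to 110, those over 6 epithelial markers 31.2 to 40.8 and 5.1 to 13.4, and those over 7 neuron and glia markers 729 to 751 and 1782 to 2010, for P and D1 respectively. The leukocyte sums overlapped, and no epithelial marker was counted well enough to be tested. The part of these markers in the P values of the phosphatases was not tested.

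**Figure D3:**
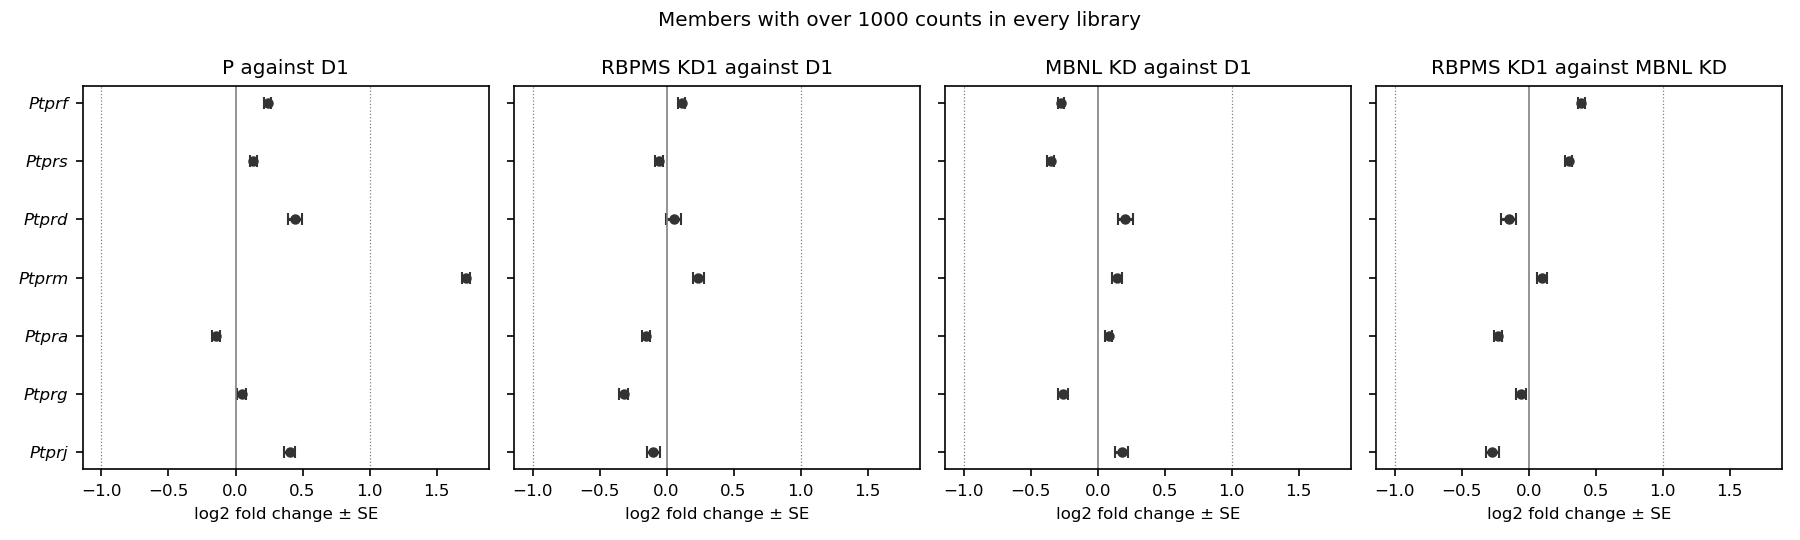
Fitted log2 fold changes (x axis, points) with their standard errors (bars) for the 7 members with over 1000 counts in every library (y axis), 1 panel for each of the 4 comparisons, with dotted lines at log2 fold changes of -1 and 1. Ptprm in P against D1, at 1.72, is the point outside the dotted lines, and Ptprf and Ptprs lie below 0 in MBNL KD against D1 and above 0 in RBPMS KD1 against MBNL KD.

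In RBPMS KD1 against D1, 7 of the 9 members other than Ptprv were counted well enough to be fitted and none of them was past both call thresholds, beside 3.06% of all 15904 genes tested called higher and 1.62% called lower. Nothing is read from that count, as the list was chosen from this comparison. Ptprg had 3959, 3893 and 3999 counts in RBPMS KD1 and 4687, 4930 and 4955 in D1, and its mean of 3985 ± 35.8 against 4978 ± 165 gave a log2 fold change of -0.32 (SE 0.034). Ptprm was at 0.24 (SE 0.041), Ptpra at -0.15 (SE 0.03) and Ptprf at 0.11 (SE 0.026), each with groups that did not overlap. Ptprj was at -0.10 (SE 0.046), Ptprs at -0.06 (SE 0.027) and Ptprd at 0.05 (SE 0.056), with overlapping groups.

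The sum of the 10 members' scaled counts was 77098 ± 1096 in RBPMS KD1 and 76927 ± 1775 in D1. This is a sum of counts and not of levels per length. It was 92782 ± 923 in P and 66080 ± 289 in MBNL KD.

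In MBNL KD against D1, 7 of the 9 were tested, of which 4 rose and 3 fell, and none was called changed. Over all 16053 genes tested, 33.8% rose, 33.7% fell, 6.1% were called higher and 4.14% lower. The LAR-type receptors split: Ptprs fell by 0.35 (SE 0.028, edgeR adjusted p = 2.2e-12) and Ptprf fell by 0.28 (SE 0.024, edgeR adjusted p = 1.7e-11), while Ptprd rose by 0.21 (SE 0.057, edgeR adjusted p = 0.002). Ptprs counts were 28746, 29030 and 25576 in MBNL KD, with a mean of 28384 ± 419, and those of Ptprf were 16392, 16472 and 15086, with a mean of 16341 ± 103. Each lay below all D1 libraries after scaling.

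Ptprg fell in MBNL KD by 0.26 (SE 0.035, edgeR adjusted p = 1.5e-07), to 4144 ± 172. Ptprj rose by 0.18 (SE 0.048, edgeR adjusted p = 0.0014), to 2423 ± 161, and Ptprm by 0.14 (SE 0.039, edgeR adjusted p = 0.0018). Ptpra rose by 0.08 (SE 0.026, edgeR adjusted p = 0.0062), to 9118 ± 178, but did not pass without D1 replicate 1 (edgeR adjusted p = 0.0924).

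RBPMS KD1 and MBNL KD were then compared directly. Of the 9 members, 8 were tested, of which 3 were higher in RBPMS KD1, 3 were lower and 2 did not pass, and none was called changed. Over all 16111 genes tested, 34.5% were higher and 35.1% lower at an adjusted p under 0.05, and 6.03% and 5.88% were called.

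Ptprf had 21784, 21209 and 20783 counts in RBPMS KD1 and was higher there than in MBNL KD by 0.39 on the log2 scale (SE 0.027, edgeR adjusted p = 6.3e-14). Ptprs, with 34814, 34988 and 34020 counts in RBPMS KD1, was higher by 0.30 (SE 0.026, edgeR adjusted p = 2.2e-11). In the main fit, Ptprf and Ptprs thus had the largest log2 fold changes between the knockdowns after Ptprv. The alternatives do not fix this order: Ptprs lay between 0.25 and 0.33, Ptprj between -0.33 and -0.22, and Ptpre, with few counts, reached 0.75. Ptprm was higher by 0.10 (SE 0.036, edgeR adjusted p = 0.017), which did not hold without RBPMS KD1 replicate 1 (edgeR adjusted p = 0.0789) or under quantile normalization (edgeR adjusted p = 0.327).

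Ptprj was lower in RBPMS KD1 than in MBNL KD by a log2 fold change of -0.27 (SE 0.048, edgeR adjusted p = 1e-05) and Ptpra by -0.23 (SE 0.029, edgeR adjusted p = 3.2e-08), without overlap. Ptprd, at -0.15 (SE 0.056, edgeR adjusted p = 0.02), overlapped and did not pass without RBPMS KD1 replicate 1 or 3 or without MBNL KD replicate 2 or 3. Ptprg was at -0.06 (95% interval -0.13 to 0.01, edgeR adjusted p = 0.17), but passed under quantile normalization (edgeR adjusted p = 0.0136). Ptpre, with few counts, was at 0.25 (95% interval -0.82 to 1.32, edgeR adjusted p = 0.7).

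The receptor-type phosphatases outside the list were mostly near the limit of counting. Of 11 genes, 6 were tested in P against D1, of which 5 were called higher and 1 lower, beside 16.4% and 11.2% over all genes tested. Ptprb, Ptprq, Ptprr and Ptprz1 had D1 means of at most 6.83 and passed the filter on low counts through their P libraries, so nothing is read from that count and no p-value is given for them in P. Ptprn, a secretory granule protein of neuroendocrine cells, rose from 22.5 ± 7.71 to 975 ± 31.0 (log2 5.42, SE 0.13, edgeR adjusted p = 1.8e-27). Ptprb, the endothelial receptor phosphatase, was at 5.45 ± 3.11 in D1 and 304 ± 14.2 in P (log2 5.76, SE 0.25). The sum of the endothelial markers was higher in the same libraries, but of its 7 genes 3 lay above D1 without overlap and 4 overlapped.

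Ptprz1, the closest relative of Ptprg, was at least 8.81-fold higher in P, at 27.1 ± 4.75 against 0 in D1, and Ptprr was at least 13.1-fold higher, at 40.4 ± 9.44. Ptprq was at 6.83 ± 2.93 in D1 and 32.1 ± 6.56 in P, and Ptprh, which passed the filter through D1, was at 15.4 ± 3.76 in D1 and 5.67 ± 3.27 in P, a call lost without P replicate 3 or D1 replicate 2. Ptprc, the leukocyte receptor CD45, had a P mean of 2.21 and was at 0 in D1, and Ptpro, Ptprt, Ptpru and Ptprn2 were not tested in any comparison.

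In the knockdowns these genes had few counts. Past both thresholds were 1 of 3 tested in RBPMS KD1 against D1, 2 of 4 in MBNL KD against D1 and 1 of 4 between the knockdowns. With so few genes tested, near the limit of counting, nothing is read from these counts beside the shares over all genes given above for each comparison. The endothelial marker sums were 162 to 165 in RBPMS KD1 and 82.9 to 127 in MBNL KD, and their part in the Ptprb values was not tested. Ptprb, the 1 gene past both thresholds in RBPMS KD1 against D1, was no longer past them in 7 of 15 alternative analyses, among them those without RBPMS KD1 replicate 2 or 3 and without D1 replicate 1 or 2. Ptprb had means of 14.8 ± 5.0 in RBPMS KD1 and 14.3 ± 5.01 in MBNL KD, and its call in MBNL KD (log2 1.37, SE 0.57) was lost in 8 of 15 alternative analyses, among them those without D1 replicate 1 or 2 and without MBNL KD replicate 2 or 3. Ptprq was at 17.4 ± 6.67 in MBNL KD, a call lost without the same libraries, and at 6.39 ± 2.54 in RBPMS KD1 (knockdowns compared, log2 -1.43, SE 0.52), a call lost without RBPMS KD1 replicate 2 or 3 and without MBNL KD replicate 2 or 3.

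The cytoplasmic, non-receptor tyrosine phosphatases were called changed in P for 5 of 17 genes, all 17 being tested: 4 higher and 1 lower, beside 16.4% and 11.2% over all genes tested. Ptpn6, the phosphatase SHP-1 known from blood cells, rose from 65.6 ± 1.98 to 1018 ± 26.2 (log2 3.95, SE 0.099, edgeR adjusted p = 3.4e-27). Ptpn18 was at 27.7 ± 19.7 in D1 and 551 ± 35.2 in P (log2 4.31, SE 0.19). Ptpn20 was at 4.78 ± 5.13 in D1 and 129 ± 17.9 in P, and Ptpn5 at 5.11 ± 4.68 and 18.9 ± 5.05. Ptpn18, Ptpn20 and Ptpn5 passed the filter on low counts through P, so no p-value is given for them. Nothing is read from the count of genes called higher, which includes them. The Ptpn5 call was lost under quantile normalization and with limma on the authors' normalised values. Ptpn22, known from lymphocytes, fell from 176 ± 9.53 to 15.4 ± 7.97 (log2 -3.50, SE 0.25, edgeR adjusted p = 2.5e-14).

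The 2 non-receptor genes with the highest counts, Ptpn11, which encodes SHP-2, and Ptpn14, rose in P by 0.27 and 0.90 (edgeR adjusted p = 1.3e-11 and 2.6e-24). Past both thresholds were 1 of 15 tested in RBPMS KD1 against D1, which was Ptpn7, 1 of 16 in MBNL KD against D1, which was Ptpn5 at 20.0 ± 4.07, and both of these genes of 16 tested between the knockdowns. Over all genes tested, 3.06% were called higher and 1.62% lower in the first of these comparisons, 6.1% and 4.14% in the second and 6.03% and 5.88% in the third. Nothing is read from these counts, and Ptpn5 passed the filter on low counts through MBNL KD alone. The mean of Ptpn5 in RBPMS KD1 was 6.05 ± 3.48.

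**Figure D4:**
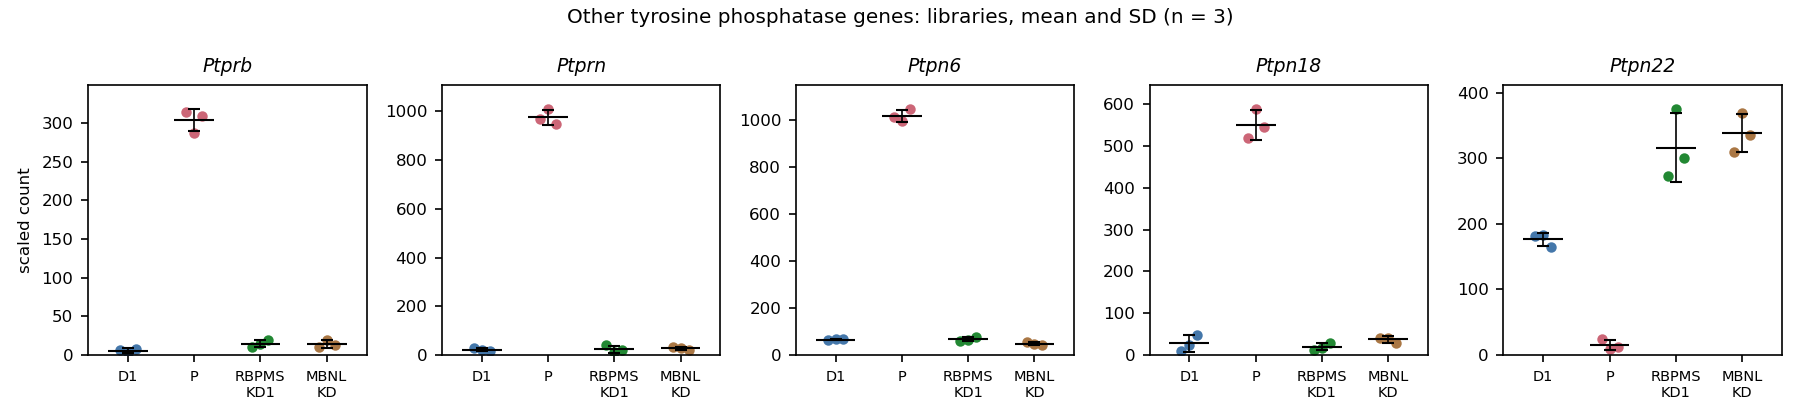
Scaled counts (y axis, linear from 0, with a different range in each panel) of Ptprb, Ptprn, Ptpn6, Ptpn18 and Ptpn22 in the 12 libraries (x axis), with 1 point per library, the mean and the SD (n = 3). The first 4 genes are highest in the P libraries, and Ptpn22 is lowest there.

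Intracellular partners of the LAR type include the liprins, scaffold proteins that bind their second catalytic domain. Of 10 partner genes, 3 were called higher in P and 1 lower, with all 10 tested, beside 16.4% and 11.2% over all genes tested. Ppfibp1, which encodes liprin-beta-1, rose from 28210 ± 630 to 64758 ± 453 (log2 1.20, SE 0.024, edgeR adjusted p = 5.7e-30), Ppfibp2 rose from 161 ± 6.06 to 746 ± 45.7 (log2 2.21, edgeR adjusted p = 1e-20) and Ppfia2 was at 2.06 ± 2.06 in D1 and 25.9 ± 13.4 in P. Ppfia4 was at 60.2 ± 20.6 in D1 and 5.98 ± 5.36 in P (log2 -3.30, SE 0.47). Ppfia2 and Ppfia4 passed the filter on low counts through the higher of these groups, so no p-value is given for them.

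In the knockdowns, 9 partner genes were tested, of which 1 was past both thresholds in RBPMS KD1 against D1, 1 in MBNL KD against D1 and 2 between the knockdowns, beside the shares over all genes just given for these comparisons. Ppfia3, which encodes liprin-alpha-3, rose in MBNL KD from 203 ± 20.1 to 461 ± 9.9 (log2 1.19, SE 0.1, edgeR adjusted p = 1.4e-11) and was lower in RBPMS KD1 than in MBNL KD (-1.42, SE 0.11, edgeR adjusted p = 4.5e-13). Ppfia4 was at 24.6 ± 8.66 in RBPMS KD1, past both thresholds against D1, and at 114 ± 20.4 in MBNL KD (knockdowns compared, log2 -2.21, SE 0.25, edgeR adjusted p = 6.1e-09). Grb2, an adaptor that binds phosphorylated Ptpra, was higher in RBPMS KD1 than in MBNL KD by 0.46 (SE 0.026, edgeR adjusted p = 4.3e-16).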

How the data were processed

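Poly(A) libraries of PAC1 cells, 3 in each of the 4 groups, were grouped by their titles and treatment labels. The authors deposited raw counts per gene symbol, for which reads were subsampled, aligned with STAR 2.7.11b to mRatBN7.2 and counted with featureCounts. They also deposited normalised values, a signal on a linear scale, made by noisyR and quantile normalization, and these were used here in 1 alternative only. Of counts from 1 to 20, 67.3% to 70.3% per library were even. The library totals were also larger than the number of reads to which the paper says each sample was subsampled. Fragments were thus counted more than 1 time on average, and halved counts were tried. The interval between transfections and the time of harvest differ between the labels and the methods.

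Comparisons used edgeR 4.0.16 in R 4.3.3 on the counts of the 6 libraries compared (filterByExpr, TMM, quasi-likelihood F test, no replicate block), adjusted by Benjamini-Hochberg over all genes tested. Scaled counts are counts divided by the TMM library size over the 12 libraries and multiplied by its geometric mean. Alternatives used DESeq2 1.42.0 and limma 3.58.1 on log2 values, with other scalings, filters and thresholds, and left out each library in turn. The script was tested on simulated data. The members and gene lists were chosen with earlier results of these data known. The text names all 10 members, every gene of the lists that was called changed, the 2 genes of each list with the highest mean, the 5 genes most like Ptprv (1 of which is not reported here), the pair of genes on each side of Ptprv and the siRNA targets. The methods speak of biological replicates without saying how cultures were separated, so p-values measure the spread between these samples. Limits of 3 counts cover counting error only and stand for fewer than 3 fragments, so fold bounds set against a limit of 3 fragments would be lower. An exact permutation test of 3 libraries against 3 cannot reach 0.05 and was not used. Counts of different genes include transcript length, which was not used here, so sums and rankings over genes are of counts and are not levels per length.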

Additional observations from a re-analysis of the deposited data

How the results depend on the processing

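Ptprm was called higher in P in every alternative, and no member other than Ptprv was called changed in the other comparisons at both thresholds. With at least 10 counts in every library, 1 member (Ptprm) was tested and called in P, since Ptprk and Ptpre were then left out, and the count over all genes went from 4641 to 2933. With the adjusted p alone, 8, 7 and 6 members passed in P against D1, MBNL KD against D1 and RBPMS KD1 against MBNL KD. The like count in RBPMS KD1 against D1 was 4 and is no test of the members, which were chosen from that comparison. Of all genes, 13103, 9393, 10833 and 11202 passed in P, RBPMS KD1 and MBNL KD against D1 and between the knockdowns, against 4641, 745, 1643 and 1920 at both thresholds. limma on the authors' normalised values called 209, 784 and 1050 of all genes in the last 3 comparisons. Of the 5 genes most like Ptprv, 0 and 0 were shared under log2(CPM + 5) and Spearman's rho. Ptpre between the knockdowns, which was not called, changed sign to -0.14 without RBPMS KD1 replicate 3 and to -0.19 without MBNL KD replicate 3, and lay between -0.19 and 0.75 when each library was left out in turn. The log2 fold change of Ptprv lay between -3.73 and -2.57 in P, 2.26 and 2.58 in RBPMS KD1, 0.65 and 0.86 in MBNL KD, and 1.61 and 1.79 between the knockdowns. With the replicate number as a replicate block, 3, 0, 0 and 0 members and 4593, 730, 1634 and 1915 of all genes were called, and same-numbered libraries did not deviate together (r from -0.0256 to 0.0198), so that the samples share only a number. The counts over gene lists under alternatives were chosen after seeing the data: in P they were 1 to 7 for the other receptor-type phosphatases (6 as reported), 3 to 5 for the non-receptor phosphatases (5) and 2 to 4 for the cytoplasmic partners (4). Calls lost with limma on the authors' normalised values were those of Ptprh, Ptprq, Ptprr and Ptpn5 in P, Ptprb, Ptpn7, Ppfia4 and Il1rapl1 in RBPMS KD1, Ptprb, Ptprq, Ptpn5, Ppfia3 and Gpc3 in MBNL KD, and Ptprq, Ptpn5, Ptpn7 and Gpc3 between the knockdowns. Depth limits Ptpre and Ptprk outside P and most other receptor-type phosphatases. The D1 means of Ptpn5, Ptpn20, Ppfia2, Gpc3, Ptn and Ptk7 were at most 11.6 and thus near the low-count filter.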

Other observations

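Extracellular ligands of these receptors differed between P and D1 in both directions. Of 32 genes of ligands and partners, 20 were tested, and 5 were called higher in P and 8 lower, beside 16.4% and 11.2% over all genes tested. Among heparan sulfate carriers, which bind the LAR-type receptors, Gpc1 (log2 2.02, SE 0.025), Sdc1 (1.31, SE 0.025) and Sdc4 (2.16, SE 0.025) rose, and Gpc3 was higher (4.97, SE 0.2). In contrast, Sdc2 (-2.15, SE 0.026), Sdc3 (-2.85, SE 0.027) and Gpc6 (-2.07, SE 0.03) fell. The carriers Gpc4 (-0.75, SE 0.026), Col18a1 (-0.65, SE 0.025), Agrn (-0.41, SE 0.03) and Hspg2 (-0.18, SE 0.032) also fell, by less than the call threshold. With Gpc3 included, 4 of these carriers were thus higher and 7 lower, beside 40.4% and 37.6% over all genes tested. Ptn, the secreted ligand pleiotrophin, was at 9.55 ± 4.69 in D1 and 380 ± 29.3 in P. Of partners at cell contacts, Ntrk3, a neurotrophin receptor that binds Ptprs, fell from 945 ± 16.4 to 20.2 ± 4.32 (-5.54, SE 0.13), Slitrk5 (-1.56, SE 0.12), Cntn3 (from 66.3 ± 16.4 to 17.0 ± 7.56) and Lrfn4 (-1.40, SE 0.04) fell, and Il1rapl1 was at least 26.0-fold lower, at 0 in P. Gpc3, Ptn and Il1rapl1 passed the filter on low counts through the group where they are high. No p-value is given for them, and nothing is read from the counts that include them. Each of the other genes named here for P passed the edgeR test at an adjusted p of 5.7e-06 or less. In MBNL KD, 3 were called higher and 1 lower, beside 6.1% and 4.14% over all genes tested. Thbs1, a matrix ligand of Ptprj, had 1 of the 2 highest means of the list and rose from 104944 ± 5261 to 330185 ± 4559 (log2 1.66, SE 0.025, edgeR adjusted p = 1.7e-29). Il1rapl1 (1.53, SE 0.16) also rose, and Ntrk3 fell (-1.17, SE 0.072). Gpc3 was higher (2.27, SE 0.36) but passed the filter on low counts through MBNL KD, so nothing is read from the count that includes it. Hspg2, which encodes perlecan, had the highest mean and fell by 0.25 (SE 0.025, edgeR adjusted p = 2.7e-10). Past both thresholds in RBPMS KD1 against D1 was Il1rapl1, at 154 ± 10.0 against 73.8 ± 10.4, but not under quantile normalization, with limma on the authors' normalised values or without D1 replicate 2. Between the knockdowns, Sdc4 (1.13, SE 0.032) and Lrfn4 (1.13, SE 0.041) were higher in RBPMS KD1, and Thbs1 (-1.31, SE 0.02) and Gpc3 (-1.63, SE 0.35) were lower, with Gpc3 again passing the filter through MBNL KD.

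Of 24 genes of substrates and opposing kinases, 22 were tested in P against D1, of which 5 were called higher and 4 lower, beside 16.4% and 11.2% over all genes tested. The Src family kinase Fyn (1.29, SE 0.034), N-cadherin Cdh2 (1.46, SE 0.035) and the receptor kinases Erbb2 (1.26, SE 0.033) and Met (1.49, SE 0.036) rose. The kinase Lyn (-1.15, SE 0.057), plakoglobin Jup (-2.46, SE 0.028) and the receptor kinases Pdgfrb (-2.23, SE 0.026) and Igf1r (from 8677 ± 148 to 3075 ± 168) fell. The pseudokinase receptor Ptk7 was higher in P (4.96, SE 0.33) but passed the filter on low counts through P, so nothing is read from the count that includes it. Pdgfrb, which with beta-catenin Ctnnb1 had the highest mean of this list, went from 81271 ± 616 in D1 to 17343 ± 669 in P, and Ctnnb1 rose by 0.45 (SE 0.023, edgeR adjusted p = 3.2e-18). None of the 21 genes tested in each of the other 3 comparisons was past both thresholds, beside 3.06% and 1.62%, 6.1% and 4.14%, and 6.03% and 5.88% of all genes called higher and lower in RBPMS KD1 and in MBNL KD against D1 and between the knockdowns.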
